A study of Mus musculus with 2 samples.

Results

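Spc25, Endov, Gm40477, Ttn and Spink13 are 5 of the 32227 genes in the deposited gene table. They were chosen for their values: Spc25, Endov and Gm40477 had 3 of the lowest ratios of Tet tcKO over Cre- across all nuclei among genes at 50 counts per 1000000 (CPM) or more, without being photoreceptor markers. Among genes at 100 CPM or more in a class, Spink13 had the lowest ratio in amacrine nuclei and Ttn in retinal ganglion cell (RGC) nuclei. Their ratios are therefore a description of what chose them. Single-nucleus RNA-seq was performed on whole retinas of C57 BL/6J mice at postnatal day 21, with 1 library per genotype. The Tet tcKO animals carried Tet1 loxp/loxp, Tet2 loxp/loxp and Tet3 loxp/loxp with the Chx10::Cre-GFP transgene, which is active in retinal progenitors and can be mosaic. The authors in-crossed Cre-positive animals so that offspring had 2 functional transgene copies, in order to reduce mosaicism. The Cre- controls were age-matched animals from Cre-negative breeders, and the labels give their genotype as WT. Each library combined 2 pools of nuclei, each from the retinas of several animals, and the cell tables do not say which nucleus came from which pool. No test between genotypes was therefore possible.

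TET enzymes oxidise 5-methylcytosine at CpG dinucleotides and so take part in removing DNA methylation. In the retina, Chx10-expressing progenitors give rise to all neurons and to Müller glia, and rods are the most abundant neuron of the mouse retina. Spc25 encodes a subunit of the Ndc80 complex, which ties kinetochores to spindle microtubules in dividing cells. Endov encodes endonuclease V, which cuts RNA at inosine. Ttn encodes titin, the giant elastic protein of the muscle sarcomere. Spink13 encodes a Kazal-type serine protease inhibitor, and Gm40477 is annotated as a long non-coding RNA.

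In the GRCm39 annotation Spc25 spans chr2:69009753-69036574 on the minus strand, and Ttn spans chr2:76534136-76812891 on the same strand. Endov lies at chr11:119382173-119402296 on the plus strand and Gm40477 at chr12:85460433-85496881 on the minus strand. Promoter windows of 3 of the 5 genes are shown because CpG dinucleotides are the substrate of TET activity. Each window runs from 250 bases before to 50 bases after a RefSeq start in GRCm38.p6, is written 5′ to 3′ along the gene, and has its CpGs in capitals. The Spc25 window is chr2:69206164-69206463, minus strand, the Endov window is the first of its 2 windows at chr11:119491097-119491396, plus strand, and the Ttn window is chr2:76982498-76982797, minus strand.
Spc25: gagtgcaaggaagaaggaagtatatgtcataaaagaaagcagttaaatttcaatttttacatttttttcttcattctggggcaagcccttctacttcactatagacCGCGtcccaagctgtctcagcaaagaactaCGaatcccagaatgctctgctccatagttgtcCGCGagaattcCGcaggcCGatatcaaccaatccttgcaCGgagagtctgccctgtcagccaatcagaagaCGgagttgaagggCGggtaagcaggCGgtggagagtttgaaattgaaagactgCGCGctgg
Endov: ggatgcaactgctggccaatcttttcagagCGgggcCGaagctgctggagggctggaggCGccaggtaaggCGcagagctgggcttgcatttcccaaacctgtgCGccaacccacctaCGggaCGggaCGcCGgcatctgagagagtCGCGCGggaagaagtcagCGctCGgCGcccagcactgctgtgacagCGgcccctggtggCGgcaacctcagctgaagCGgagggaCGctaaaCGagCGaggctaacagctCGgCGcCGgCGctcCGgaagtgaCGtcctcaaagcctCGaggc
Ttn: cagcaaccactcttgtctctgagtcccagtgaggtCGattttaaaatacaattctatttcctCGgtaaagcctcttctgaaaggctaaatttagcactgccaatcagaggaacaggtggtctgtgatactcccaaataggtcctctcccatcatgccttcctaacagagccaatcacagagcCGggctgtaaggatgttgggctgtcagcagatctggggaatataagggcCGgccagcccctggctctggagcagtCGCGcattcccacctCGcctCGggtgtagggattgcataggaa

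The windows differed in CpG content. The Spc25 window held 13 CpGs, and 62.1% of all 32851 RefSeq promoter windows held fewer. The Endov window held 28, with fewer in 85.8% of all windows, and its other window, which starts inside this one, held 24. The Ttn window held 8, close to the median of 7. None of these windows contained TAATCC, the core read by photoreceptor homeodomain factors such as CRX, on either strand, and 7.06% of all windows held it. The motif CCAAT occurred 2 times in the Spc25 window, 2 times in the Ttn window and 1 time in the Endov window shown, and 37.4% of all windows held it. TTTGAA, a cell cycle homology element, occurred 1 time in the Spc25 window and in 17.9% of all windows. Methylation of these windows was not analysed here.

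The Cre- library held 7357 nuclei with 11510585 UMIs, a median of 1107 per nucleus, and the Tet tcKO library held 6766 nuclei with 16590747 UMIs, a median of 1837. The libraries shared 1 cell barcode. The share of mitochondrial UMIs was 5.47% in Cre- and 1.76% in Tet tcKO. The amacrine, RGC and horizontal classes of the authors' annotation passed a check against marker genes, in which clusters without any markers also passed. Amacrine cluster 27, with 256 of 403 Cre- amacrine nuclei, had 0 markers of any class among its leading genes. Amacrine clusters 12 and 23 had 0 by UMIs, so the pass does not show the identity of these nuclei. Müller glia, bipolar cells, cones and rods failed the check, and these names are the annotation only. Annotated rods and cones were pooled, because 99.8% of these nuclei were cones in Tet tcKO and 4.84% in Cre-. Clusters 11, 25, 32 and 40, which held 22.9% of the pooled nuclei in Cre- and 0.031% in Tet tcKO, had more markers of other classes than photoreceptor markers among their leading genes, and values without them are given beside the pooled ones. Bipolar-annotated nuclei were in different clusters in each library, mainly 3, 4 and 7 in Cre- and 22, 35, 39, 41, 42 and 43 in Tet tcKO. Clusters 22, 35, 39 and 41 had the cone marker Cngb3 and 0 bipolar markers among their leading genes by UMIs, so bipolar levels are given within a library and not compared between libraries. Over whole genes, the 3′ counts were 50.2 CPM in Cre- and 61.2 in Tet tcKO for Tet1, 104.8 and 139.4 for Tet2, and 180.4 and 173.8 for Tet3, but these counts do not show the floxed exons and do not check the labels.

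All 5 genes were at least 2-fold lower in Tet tcKO over all nuclei. Levels are UMIs of a gene per 1000000 UMIs of the population, ratios are log2 of Tet tcKO over Cre-, and brackets give exact 95% intervals of the counting error alone. For Spc25, 1142 UMIs in Cre- and 216 in Tet tcKO gave 99.2 and 13.02 CPM and a ratio of -2.93 (-3.15 to -2.72). For Endov, 5505 and 1685 UMIs gave 478.3 and 101.6 CPM, a ratio of -2.24 (-2.31 to -2.16). Among 11158 genes with enough counts, 2.48% were 2-fold or more lower and 3.18% were 2-fold or more higher.

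Gm40477 was counted with 677 Cre- UMIs and 231 Tet tcKO UMIs, which is 58.8 and 13.9 CPM, with the ratio at -2.08 (-2.30 to -1.86). Ttn had 363 and 156 UMIs, or 31.5 and 9.40 CPM, with a ratio of -1.75 (-2.03 to -1.47). Spink13 had 631 and 279 UMIs, or 54.8 and 16.8 CPM, with a ratio of -1.70 (-1.91 to -1.499). Counted from the lowest ratio, Spc25 stood at place 6, Endov at 13, Gm40477 at 19, Ttn at 56 and Spink13 at 60. The median tested gene stood at 0.15 on the log2 scale. With TMM scaling, which lowered all ratios by 0.10, 3.19% of genes were lower and 2.47% higher, so the balance of lower and higher genes turned. Because this shift lowers every ratio, it could not bring any of the 5 members above the 2-fold line.

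The genes next to the members in the order of ratios were as follows. Where either library reached 50 CPM, Spc25 and Endov had the lowest ratios, Cnga1 stood between them and Gm40477 at -2.13, and the next after Gm40477 were Slc24a1 (-1.96), Reep6 (-1.95), Vtn (-1.94), Gm20139 (-1.92), Pitpnm2os2 (-1.88) and the mitochondrial gene mt-Co1 (-1.85). Cnga1, Slc24a1 and Reep6 are expressed in rods, with roles in the cyclic nucleotide-gated channel, calcium exchange and the endoplasmic reticulum. In amacrine nuclei at 100 CPM or more, Spink13 and Endov were followed by Cnga1 (-2.14), Reep6 (-2.07), Col7a1 (-1.94) and Pde6a (-1.93). In RGC nuclei, Ttn and Endov were followed by Cnga1 (-2.005), Slc24a1 (-1.94), Pde6g (-1.80) and the mitochondrial gene mt-Atp8 (-1.76).

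**Figure D1:**
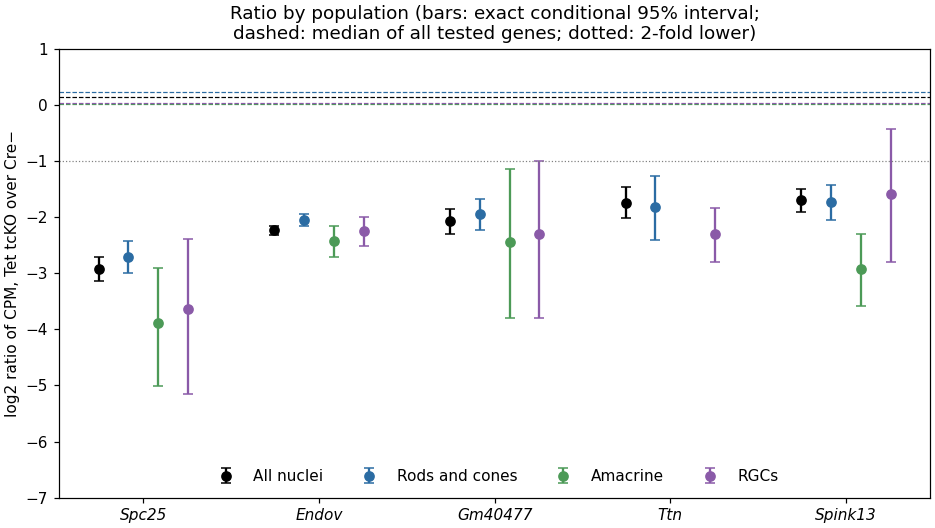
Log2 ratio of CPM, Tet tcKO over Cre-, for each gene in all nuclei, annotated rods and cones, amacrine cells and RGCs. Points are single ratios with exact 95% intervals of counting error, dashed lines mark the median of all tested genes and the dotted line marks a 2-fold lower level. All plotted points lie below the dotted line, and Ttn in amacrine cells, with 3 and 15 UMIs, is not plotted.

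The genes differed in where their Cre- signal came from. In Cre-, annotated rods and cones held 65.8% of all UMIs. They supplied 73.1% (exact binomial 95% interval 70.4 to 75.7) of the Spc25 UMIs, 69.4% (68.1 to 70.6) of those of Endov, 81.4% (78.2 to 84.3) of those of Gm40477, 59.7% (55.8 to 63.6) of those of Spink13 and 35.0% (30.1 to 40.1) of those of Ttn. Ttn stood apart, since RGCs, with 10.7% of all UMIs, held 39.4% (34.3 to 44.6) of its UMIs.

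Rod transcripts were also counted outside rods, and whether they came from RNA freed from other nuclei was not tested. Nrl and Nr2e3, the transcription factors of rod fate, and Gnat1, Pde6a and Cnga1 of rod phototransduction were detected in Cre- amacrine nuclei at 23.3% to 27.3% of their rod level and in Cre- RGC nuclei at 14.4% to 20.8%. Endov reached 91.2% of its rod level in amacrine nuclei and 77.5% in RGCs. Spc25 reached 60.5% and 30.3%, and Spink13 reached 214.3% and 29.8%. Ttn stood at 30.04% of its rod level in amacrine nuclei and at 650.2% in RGCs. Gm40477 stood at 33.6% and 23.5%, the closest to the rod genes in RGCs, and in amacrine nuclei Ttn and then Gm40477 were the closest. The rod genes were also lower in Tet tcKO within these classes, with a median log2 ratio of -1.49 in amacrine nuclei and -1.61 in RGCs over 5 of 5 genes lower, and the part of free RNA in the members' ratios was not tested.

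**Figure D2:**
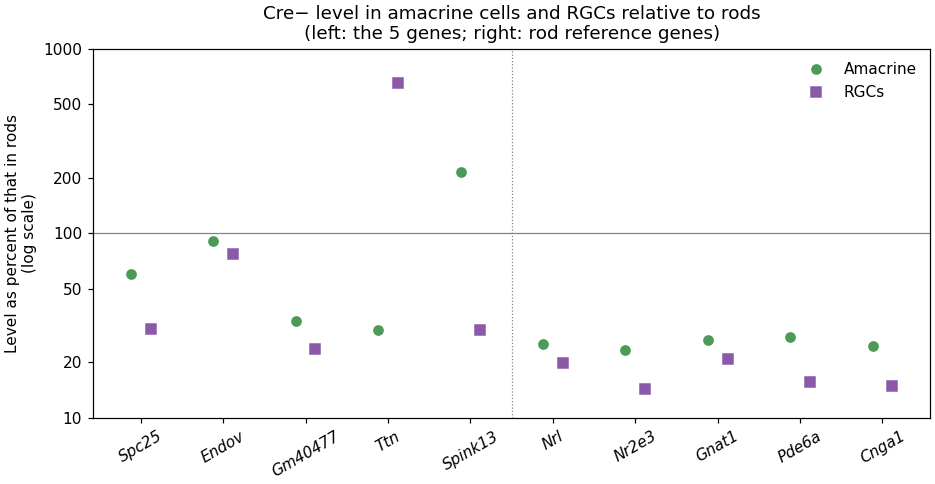
Cre- level in amacrine cells (circles) and RGCs (squares) as a percent of the level in annotated rods, on a log scale, for the 5 genes (left of the dotted line) and 5 rod reference genes (right). The rod genes lie between 14.4% and 27.3%, Endov lies near 100%, Ttn in RGCs is at 650.2% and Spink13 in amacrine cells is at 214.3%.

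Spc25 had its highest Cre- level in nuclei annotated as Müller glia, the radial glia of the retina. The level there was 378.0 CPM (exact Poisson 95% interval 301.5 to 468.0), against 115.4 (107.3 to 123.9) in rods, 77.6 in cones, 75.8 in horizontal cells, 73.1 in bipolar cells, 69.8 in amacrine cells and 35.0 (25.3 to 47.1) in RGCs. The intervals of cones, horizontal, bipolar and amacrine cells overlapped, and those of Müller glia, rods and RGCs stood clear of each other. The authors' clusters were built on all genes, so levels by class and cluster are a description. After thinning each nucleus to 500 UMIs, 25.7% of Müller-annotated, 6.12% of rod-annotated and 2.47% of RGC nuclei had a Spc25 UMI, where the unthinned shares were 41.0%, 13.2% and 6.88% and the median depths 1093, 1026 and 1601 UMIs.

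In Tet tcKO the order of Spc25 levels was headed by the same annotated class at a lower level. Müller-annotated nuclei stood at 113.9 CPM (66.4 to 182.4), horizontal cells at 27.0, cones at 16.9, bipolar cells at 12.1, amacrine cells at 4.70 and RGCs at 2.81. The interval of the Müller-annotated nuclei lay above those of cones, bipolar cells, amacrine cells and RGCs. Cluster 30, the Müller-annotated cluster shared by both libraries, held 29 Spc25 UMIs in 43 Cre- nuclei and 10 in 46 Tet tcKO nuclei, which is 668.1 and 148.2 CPM, with the log2 ratio at -2.17 (-3.37 to -1.09). The summed level of 9 Müller markers in this cluster was 4930 and 3422 CPM, and that of 10 rod markers was 4308 and 1482 CPM. Of 7 progenitor markers, 7 were at 0 in Cre- and 4 in Tet tcKO, where the 7 summed to 5 UMIs. The part of these marker levels in the Spc25 difference was not tested. Cluster 14, also annotated as Müller glia, held 99 of the 144 Cre- nuclei of this class and none of Tet tcKO, with Spc25 at 286.3 CPM. Its Müller markers summed to 2462 CPM and its rod markers to 7462 CPM. Over all Cre- nuclei these sums were 1027 and 9631 CPM.

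In annotated rods and cones together, Spc25 was at 110.2 CPM in Cre- and 16.9 in Tet tcKO, with the log2 ratio at -2.71 (-2.99 to -2.44), and at -2.72 without clusters 11, 25, 32 and 40. Amacrine cells and RGCs gave lower ratios on fewer counts. Amacrine nuclei held 39 and 11 UMIs, a ratio of -3.89 (-5.01 to -2.90), and RGCs held 43 and 6, a ratio of -3.64 (-5.16 to -2.40). These intervals overlapped that of rods and cones in both cases. The Spc25 level in Cre- RGCs was 30.3% of that in rods, against 14.4% to 20.8% for the rod genes. The part of free RNA in the RGC ratio was not tested, nor whether the gene changed in RGCs. Horizontal cells, with 12 and 3 UMIs, did not have enough counts, and their log2 ratio of -1.49 had an interval (-3.95 to 0.40) that included 0.

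The mitotic partners of Spc25 were scarcely detected. Ndc80, Nuf2 and Spc24, which form the Ndc80 complex with Spc25 and were singled out after their values were seen, had 25, 6 and 14 UMIs in Cre- and 43, 3 and 16 in Tet tcKO. Of 19 kinetochore genes without Spc25, 5 had enough counts, and 0 were 2-fold lower and 1 higher, against the 2.48% and 3.18% of all genes. The 4 with the highest Cre- level were Cenpc1 (117.1 CPM in Cre-, 102.2 in Tet tcKO), Zwint (54.3 and 74.3), Cenpt (25.5 and 24.3) and Ska2 (20.5 and 25.6), and the higher gene was Bub1b, of the spindle checkpoint (10.8 and 30.02). Of 14 proliferation genes 2 had enough counts, Ccna2 (20.3 and 17.8 CPM) and Pcna (7.30 and 10.4), and neither passed 2-fold. Mki67, a marker of cycling cells, had 1 UMI in Cre- and 13 in Tet tcKO. Bub1b and Mki67 were named after their values were seen.

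Endov had a nearly even level across the Cre- retina. Its level was 510.7 CPM (493.5 to 528.3) in rods, 473.7 in horizontal cells, 465.5 in amacrine cells, 461.5 in cones, 444.6 in bipolar cells, 395.9 in RGCs and 360.0 (285.5 to 448.1) in Müller-annotated nuclei. Neighbours in this order had overlapping intervals, whereas the rod interval stood clear of those of bipolar cells (414.1 to 476.9), RGCs (361.5 to 432.6) and Müller-annotated nuclei. In Tet tcKO the classes with over 30 nuclei ranged from 63.05 CPM in horizontal cells to 121.2 in cones.

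The 25 clusters with at least 50 Cre- nuclei ranged from 247.5 to 594.2 CPM, and the 22 clusters with at least 50 Tet tcKO nuclei ranged from 64.2 to 138.2 CPM, so that the libraries did not overlap. For the other 4 genes the cluster ranges of both libraries overlapped, with 11 to 22 of the Tet tcKO clusters above the lowest Cre- cluster. Endov was also the only gene with counts in both libraries in each of the 9 clusters that held 20 or more nuclei of both. All 9 intervals lay below 0, and the ratios ran from -2.91 in horizontal cluster 18 to -1.43 in RGC cluster 31.

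**Figure D3:**
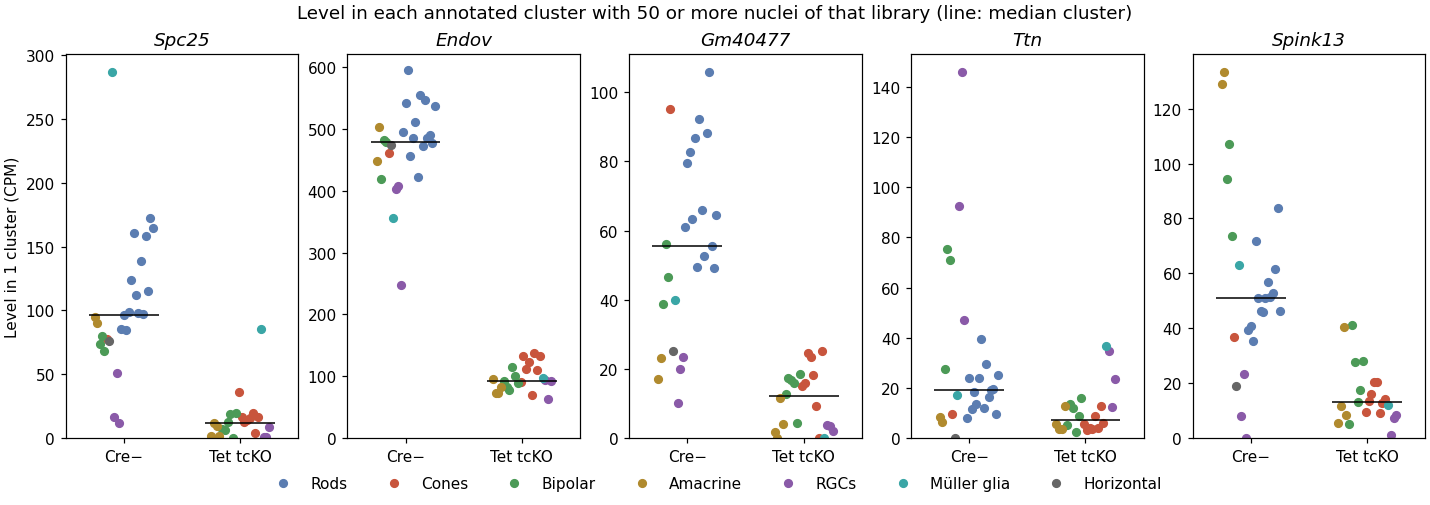
Level (CPM) of each gene in every annotated cluster that holds 50 or more nuclei of the library named on the horizontal axis. Points are clusters coloured by annotated class and the line is the median cluster. Endov is the gene whose Cre- clusters (247.5 CPM and above) all lie above its Tet tcKO clusters (138.2 CPM and below).

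By class, Endov stood at 504.0 CPM in Cre- and 121.1 in Tet tcKO in annotated rods and cones, a log2 ratio of -2.06 (-2.16 to -1.95), and at -2.10 without the 4 named clusters. It stood at -2.43 (-2.70 to -2.16) in amacrine nuclei, from 260 and 202 UMIs, at -2.25 (-2.51 to -2.003) in RGCs, from 487 and 177 UMIs, and at -2.91 (-4.27 to -1.80) in horizontal cells, from 75 and 7 UMIs. After thinning to 500 UMIs, 21.1% of Cre- nuclei and 5.11% of Tet tcKO nuclei had an Endov UMI, against 43.0% and 21.2% before thinning. Over all nuclei the ratio was similar at each depth. Nuclei with 500 to 1000 UMIs gave -2.34, those with 1000 to 2000 gave -2.24 and those with 2000 to 10000 gave -2.17.

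Other enzymes that make or handle inosine were compared over all nuclei. Of 11 such genes 9 had enough counts, and 0 were 2-fold lower and 1 higher, against the 2.48% and 3.18% of all genes. With so few genes, nothing is read from these counts. The highest in Cre- were Adarb2 (338.3 CPM in Cre- and 376.5 in Tet tcKO) and Adarb1 (176.5 and 191.0), of the adenosine deaminases that act on RNA, Snd1 (88.2 and 102.0), a nuclease that binds inosine-containing RNA, and Adar (85.9 and 94.8). The higher gene, named after its value was seen, was Ampd2, an AMP deaminase, at 51.6 and 229.8 CPM, a log2 ratio of 2.15.

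Gm40477 had its highest Cre- levels in photoreceptor-annotated nuclei. It stood at 95.02 CPM (77.1 to 115.8) in cone-annotated nuclei, nearly all of them in cluster 11, at 69.2 (63.0 to 75.9) in rods and at 46.4 (36.9 to 57.7) in bipolar cells. Müller-annotated nuclei followed at 31.5, horizontal cells at 25.3, amacrine cells at 23.3 and RGCs at 16.3 (9.93 to 25.1), with overlapping intervals. Among rod clusters with at least 50 Cre- nuclei, the highest was cluster 36 at 105.7 CPM.

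In Tet tcKO, Gm40477 was at 18.6 CPM in cone-annotated nuclei, 16.4 in bipolar cells, 4.27 in amacrine cells and 3.28 in RGCs, and 0 UMIs were found in 102 Müller-annotated nuclei, which allows up to 20.1 CPM. Over annotated rods and cones the levels were 72.7 and 18.8 CPM, with the log2 ratio at -1.95 (-2.23 to -1.68), and -1.91 without the 4 named clusters. Amacrine nuclei, with 13 and 10 UMIs, gave -2.45 (-3.80 to -1.14), and RGCs, with 20 and 7 UMIs, gave -2.31 (-3.79 to -1.01). The Cre- level was 33.6% of that in rods in amacrine nuclei and 23.5% in RGCs. For the rod genes it was 23.3% to 27.3% and 14.4% to 20.8%. The part of free RNA in these ratios was not tested, nor whether the gene changed in amacrine cells or RGCs.

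Ttn had its highest Cre- level in RGCs, the output neurons of the retina. It stood at 116.2 CPM (98.0 to 136.9) in RGCs, 48.1 (38.5 to 59.5) in bipolar cells, 22.5 in Müller-annotated nuclei, 17.9 (14.8 to 21.4) in rods, 9.70 in cones and 5.37 in amacrine cells, and it had 0 UMIs in 90 horizontal nuclei, which allows up to 18.9 CPM. The intervals of RGCs and bipolar cells stood apart from each other and from that of rods, and Müller-annotated nuclei overlapped their neighbours. These intervals treat each UMI as independent, although 7 RGC nuclei held 67 of the 143 Cre- UMIs in RGCs. Among RGC clusters, cluster 8 was at 145.8 CPM, cluster 2 at 92.6 and cluster 31 at 47.2, and bipolar clusters 4, 7 and 3 were at 75.5, 71.1 and 27.8 CPM (18.0 to 41.0 for cluster 3).

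In Tet tcKO the RGC level of Ttn was 23.4 CPM (17.4 to 30.9), from 50 UMIs against 143 in Cre-, a log2 ratio of -2.31 (-2.80 to -1.84). Most RGCs were in different clusters in each library, 394 of 567 in cluster 8 in Cre- and 273 and 217 of 704 in clusters 31 and 15 in Tet tcKO. Within cluster 2, with 111 and 185 nuclei, the levels were 92.6 and 34.8 CPM, with the ratio at -1.41 (-2.15 to -0.70). Within cluster 31, 4 and 11 UMIs gave 47.2 and 23.6 CPM, and the interval of the log2 ratio (-2.75 to 1.11) included 0. Cluster 8 had 94 UMIs in Cre- and 1 in the 29 Tet tcKO nuclei, or 145.8 and 19.3 CPM, with the ratio at -2.92 (-8.24 to -0.41).

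The RGC signal of Ttn was uneven between nuclei. In Cre-, 7 nuclei had 5 or more Ttn UMIs, all of them RGCs, and together they held 67 UMIs, with up to 13 in a nucleus. In Tet tcKO, 2 RGC nuclei with 17 UMIs and 1 bipolar nucleus with 5 UMIs reached that level. Counting each nucleus once, 52 of 567 Cre- RGCs (9.17%) and 26 of 704 Tet tcKO RGCs (3.69%) had a Ttn UMI, and 4.59% and 1.42% had one after thinning to 500 UMIs. Cre- rod-annotated nuclei gave 1.07% after thinning and 2.17% before, at a median depth of 1026 UMIs against 1601 in Cre- RGCs. Cre- bipolar-annotated nuclei gave 3.41% (2.18 to 5.08) after thinning, overlapping Cre- RGCs (3.02 to 6.65), and 10.2% before, at a median depth of 1968 UMIs.

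In annotated rods and cones Ttn was at 16.8 and 4.72 CPM, with the log2 ratio at -1.83 (-2.41 to -1.28), and -1.82 without the 4 named clusters. Amacrine nuclei did not have enough counts for a ratio, with 3 UMIs in Cre- and 15 in Tet tcKO, or 5.37 and 6.40 CPM. In Müller-annotated nuclei, 5 UMIs in each library gave 22.5 and 33.5 CPM with wide, overlapping intervals.

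Few other sarcomere genes had enough counts. Of 21 such genes 5 had them over all nuclei, and 0 were 2-fold lower and 0 higher, where 2.48% and 3.18% of all genes were, so that these counts are near the background. Their median log2 ratio was -0.26 against 0.15 for all genes. Nebl, which encodes the thin-filament protein nebulette, was at 385.6 and 246.2 CPM (-0.65), Speg, a striated muscle kinase, at 62.1 and 60.3 (-0.042), the M-band gene Myom1 at 25.1 and 14.1 (-0.83) and the tropomodulin Tmod1 at 16.3 and 13.6 (-0.26). In RGCs, where 6 of these genes had enough counts, 0 were 2-fold lower against 3.13% of all genes, and the median was 0.027. In annotated rods and cones 1 of 6 was 2-fold lower, Nebl (-1.18), against 2.58% of all genes. In amacrine nuclei 2 of 8 were, Myom1 (-1.15) and Ldb3 (-1.07), against 4.92%, and both of their intervals included 0. Ldb3 was named after its value was seen. The summed level of 8 skeletal muscle markers in RGCs was 13.8 CPM in Cre- and 8.44 in Tet tcKO, with 4 and 5 of the 8 at 0.

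Spink13 had its highest Cre- levels in amacrine and bipolar cells. The gene spans chr18:62740606-62874458 on the minus strand in GRCm39. Amacrine nuclei were at 111.0 CPM (85.1 to 142.3) and bipolar cells at 90.1 (76.6 to 105.2), with overlapping intervals, and both stood above rods at 51.8 (46.4 to 57.6). Müller-annotated nuclei at 49.5 and cones at 36.8 overlapped rods. Horizontal cells were at 18.9 and RGCs at 15.4 (9.30 to 24.1). Among amacrine clusters the level was uneven. Cluster 23 was at 191.7 CPM from 6 UMIs, cluster 27 at 133.2, cluster 13 at 129.1 and cluster 24 at 16.8 from 1 UMI.

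In Tet tcKO, amacrine nuclei were at 14.5 CPM (10.1 to 20.3), from 34 UMIs against 62 in Cre-, a log2 ratio of -2.93 (-3.58 to -2.31). Most amacrine nuclei were in different clusters, 256 of 403 in cluster 27 in Cre- and 357, 321 and 222 of 1043 in clusters 12, 24 and 23 in Tet tcKO. Within shared clusters Spink13 was lower in cluster 13, from 129.1 to 11.6 CPM (-3.47, -5.90 to -1.65), and in cluster 23, from 191.7 to 40.4 CPM (-2.25, -3.61 to -0.65). In cluster 24 the interval included 0, and cluster 27 held only 21 Tet tcKO nuclei with 0 Spink13 UMIs. After thinning, 3.97% of Cre- and 0.479% of Tet tcKO amacrine nuclei had a Spink13 UMI, against 9.18% and 2.68% before. Cre- RGCs gave 0.705% after thinning and 2.82% before, at a median depth of 1601 UMIs against 1065 in Cre- amacrine nuclei.

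Within Tet tcKO, Spink13 was highest in bipolar-annotated nuclei, at 27.2 CPM. Annotated rods and cones were at 49.8 and 15.0 CPM, with the log2 ratio at -1.73 (-2.05 to -1.42), and -1.75 without the 4 named clusters. RGCs, with 19 and 11 UMIs, gave -1.58 (-2.80 to -0.44), while their Cre- level stood at 29.8% of that in rods. Of 11 other Spink genes only Spink10 had enough counts, at 17.9 CPM in Cre- and 18.2 in Tet tcKO, and the 10 others had at most 10 UMIs in a library.

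**Figure D4:**
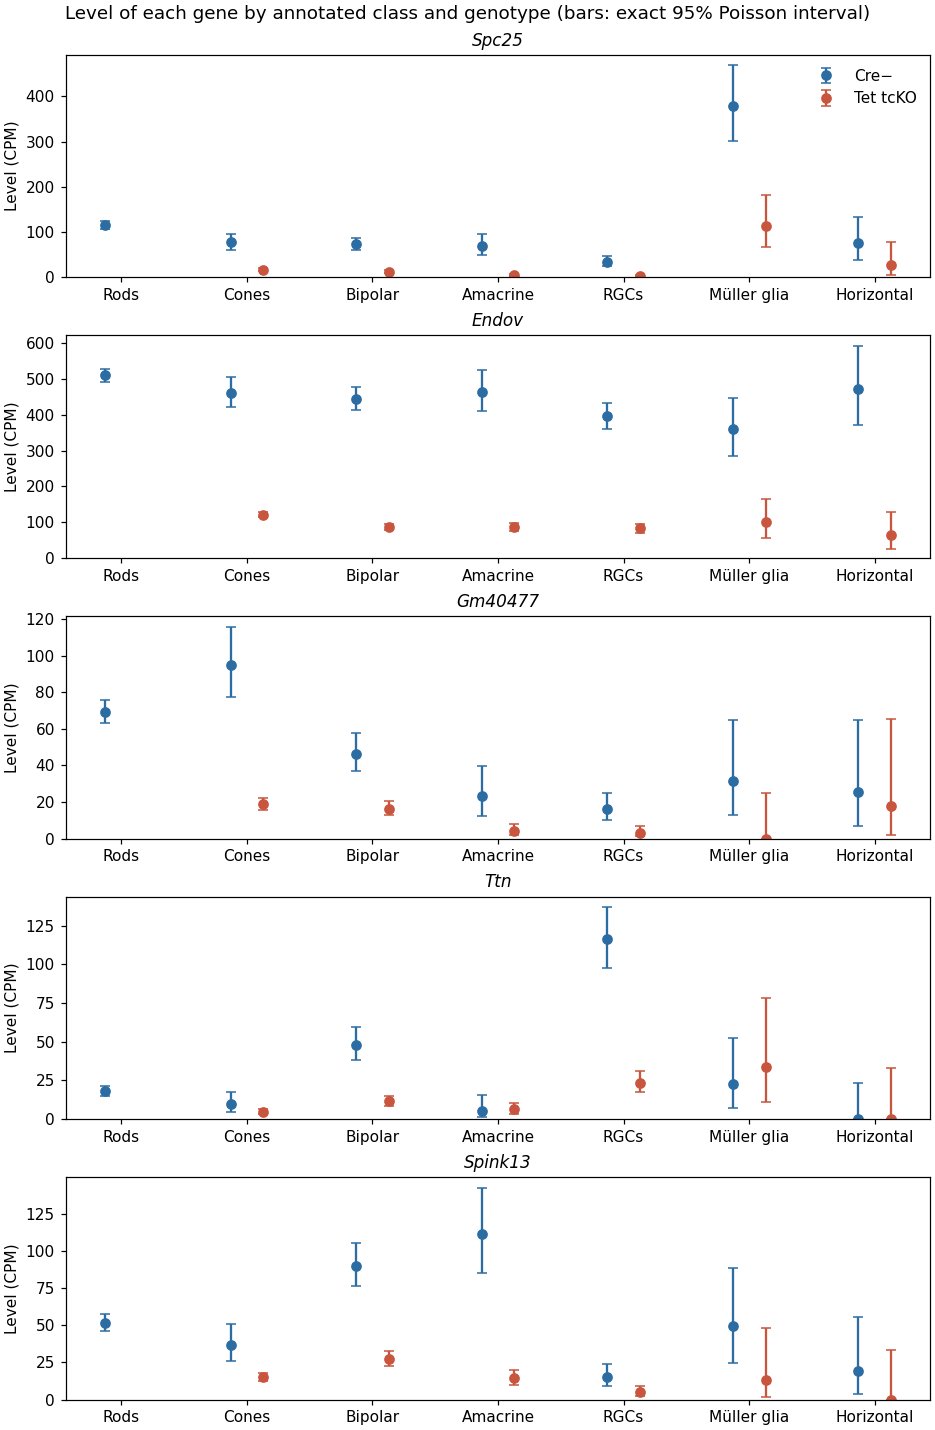
Level (CPM, axis from 0) of each gene by annotated class in Cre- (blue) and Tet tcKO (red), with exact 95% Poisson intervals. Classes with under 30 nuclei in a library, which are rods in Tet tcKO, are not plotted. Spc25 is highest in Müller-annotated nuclei (378.0 CPM in Cre-), Endov is nearly even, Gm40477 is highest in photoreceptor-annotated nuclei, Ttn in RGCs (116.2 CPM) and Spink13 in amacrine cells (111.0 CPM), all in Cre-, and bipolar-annotated nuclei are in different clusters in each library.

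Counted over the members, annotated rods and cones had 5 of 5 genes 2-fold or more lower, where 2.58% of all tested genes were, and 5 of 5 without the 4 named clusters, where 2.73% were. Amacrine nuclei had 4 of 4 tested members lower against 4.92% of all genes, RGCs 5 of 5 against 3.13%, and horizontal cells 1 of 1, Endov, against 5.61%. The members were chosen on these ratios, so nothing is read from the counts. Scaling moved the balance of all genes. With total UMIs and then TMM, the genes 2-fold higher were 6.67% and 3.89% in rods and cones (lower, 4.01% with TMM), 7.2% and 4.59% without the 4 clusters (lower, 3.87%), 6.55% and 8.34% in amacrine nuclei (lower, 3.8%) and 7.12% and 5% in horizontal cells (lower, 7.4%). The difference in CPM over all nuclei was split, with rods and cones as a single class. Different class shares made up 8.82% of it for Spc25, 2.43% for Endov and 10.9% for Gm40477. These shares acted in the opposite direction for Ttn (-13.2%) and Spink13 (-14.5%). The split counts bipolar-annotated nuclei as the same class in both libraries, although they were in different clusters. It also merges annotated rods and cones, although 4.84% of these nuclei were cones in Cre- and 99.8% in Tet tcKO. A change from rods to cones is therefore counted as a change of level within that class. This level part was 59.8% of the difference for Spc25, 56.15% for Endov and 66.4% for Gm40477. The part of the change from rods to cones in it was not tested, so the split is a description.

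The genes around each member were compared in the same way. Taking the nearest 3 measured genes on each side of each member, 0 of 30 neighbouring genes were 2-fold lower over all nuclei and 3 were 2-fold higher, with log2 ratios from -0.61 to 1.59. Over all genes these shares were 2.48% and 3.18%, so a count of 0 in 30 is near the background. The lowest was Stk39 beside Spc25 (-0.61). The 3 higher neighbours were Ccdc141 beside Ttn (1.59), Nptx1 beside Endov (1.27) and Lrp2 beside Spc25 (1.05). Gm40477 lay 23777 bases from Fos, an immediate early gene, which was at 13.9 CPM in Cre- and 15.1 in Tet tcKO.

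Measured genes on the opposite strand overlap Spc25, Endov, Ttn and Spink13, and whether the counting used strand was not stated, so reads of such pairs could not be told apart without it. Nostrin overlaps Spc25 and had 37 and 24 UMIs in all, A930037H05Rik overlaps Endov by 267 bases and was at 27.1 and 27.2 CPM, Gm13938 overlaps Ttn and had 29 and 60 UMIs, and Spink10 overlaps Spink13. Genes annotated on the other strand of Gm40477 were not analysed here. Nostrin had a log2 ratio of -1.15 (-1.96 to -0.37), lower in Tet tcKO like Spc25, whereas the intervals of A930037H05Rik (-0.20 to 0.22), Gm13938 (-0.14 to 1.21) and Spink10 (-0.24 to 0.29) included 0. Spink10 had 206 UMIs in Cre- against 631 of Spink13. The part of shared reads in the members' ratios was not tested.

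**Figure D5:**
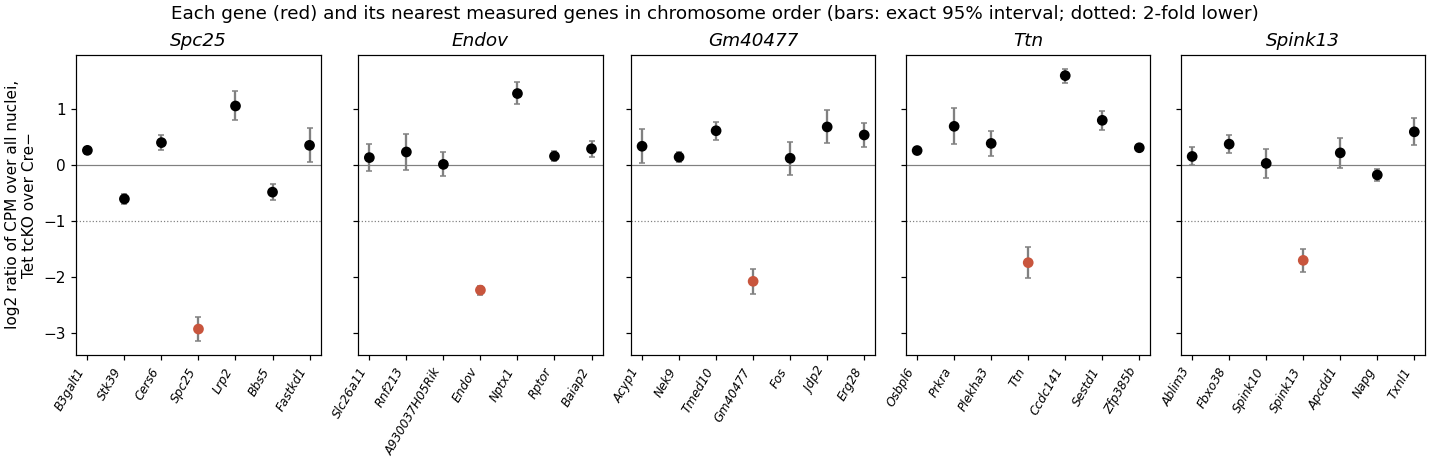
Log2 ratio of CPM over all nuclei, Tet tcKO over Cre-, for each gene (red) and its nearest 3 measured genes on each side (black) in chromosome order, with exact 95% intervals. All 30 neighbours lie above the dotted 2-fold line, between -0.61 and 1.59, and the 5 genes lie below it.

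The Cre- patterns across clusters were compared with those of all genes, over the 25 annotated clusters with 50 or more Cre- nuclei and 10440 genes. These clusters share a library and differ in depth, so the correlations are a description. Of the Müller-annotated clusters only cluster 14 is among them, and that class failed the marker check. Spc25 was most like Rlbp1 (Pearson r = 0.928), which carries retinaldehyde in Müller glia, and Glul (0.913), the glutamine synthetase of these cells, followed by E130114P18Rik, Rcvrn and Cryab. Rlbp1 and Glul had ratios of -1.76 and -1.30. Endov was most like Eif3g (0.907), a translation initiation factor subunit, Tspan31, Alkbh6, Rex1bd and Apbb1, whose ratios ran from -0.22 to 0.60.

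Gm40477 was most like Ano2 (r = 0.944), a calcium-activated chloride channel of photoreceptor terminals, Gm42716, Gm44196, Rgs9 and Reep6, and of these Gm44196 (-1.83) and Reep6 (-1.95) were 2-fold lower in Tet tcKO. Ttn was most like Grid1 (0.869), a delta glutamate receptor, the potassium channel gene Kcnd3, Ntng1, Elmo1 and Nrp2, with ratios from -0.39 to 0.20. Spink13 was most like Pdgfd (0.946), a growth factor gene, Hsp90b1, Iqgap2, Cygb and Crnkl1, with ratios from -0.21 to 0.89. Of the 5 most similar genes, 4 were 2-fold lower for Spc25, 2 for Gm40477 and 0 for each of Endov, Ttn and Spink13, where 2.48% of all genes were, and the differences between these counts were not tested.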

How the data were processed

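Nuclei of P21 retinas were captured with a PIPseq 3′ kit, and per the labels the authors processed reads with pipseeker 3.3.0 against GRCm39. The authors used CellBender to reduce ambient RNA, with barcodes retained at a cell probability of 0.99. Nuclei were filtered to between 500 and 10000 transcripts and to less than 20% of mitochondrial origin. UMI counts per gene and nucleus are deposited as matrices. The deposited mitochondrial percent per nucleus, the deposited size factor (a ratio) and the deposited mean signal per genotype were not used for levels. Classes and clusters are the authors' annotation.

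UMIs were summed per population and divided by their total (CPM). With 1 library per genotype no test was made. Ratios have conditional intervals, levels Poisson intervals and shares Clopper-Pearson intervals, all exact at 95% and covering counting error only. A gene had enough counts at 10 CPM or more in 1 library and 20 UMIs in both together. Where a library had 0 counts, no ratio is given in clusters, and the limit is 3 counts. Ratios of classes that failed the marker check are given for shared clusters only, with rods and cones pooled. The alternatives also set annotated rods or cones of Cre- against annotated cones of Tet tcKO. A class failed the check if, among the 10 leading genes of any of its clusters, markers of a different class outnumbered its own. A cluster with markers of no class passed. Nuclei were thinned to 500 UMIs at random. Doublets were not called, and no doublet step is given in the sources used here. The named genes were the members, the 5 genes most like each over Cre- clusters, the 3 nearest measured genes on each side, the next genes past the choice, and up to 4 genes of each pathway list with the highest Cre- level. Members and lists were chosen with earlier results of these data known. Promoter windows and their coordinates come from RefSeq (GRCm38.p6), and each window was found unchanged in GRCm39. Scripts were tested on simulated data. Python 3.11.15, numpy 2.4.6, scipy 1.17.1 and pandas 2.3.3 were used.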

Additional observations from a re-analysis of the deposited data

Results flagged for a closer look

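The deposited gene table counts more nuclei with each gene than the deposited matrices hold. The excess was 214 nuclei for Spc25 (1415 in the table, 1201 in the matrices), 679 for Endov (5273 and 4594), 169 for Gm40477 (1005 and 836), 87 for Ttn (465 and 378) and 180 for Spink13 (948 and 768). As a share of the matrix counts it ran from 14.8% for Endov to 23.4% for Spink13. The table's mean signal per genotype equalled the mean over the deposited nuclei for all 5 genes, so its means and its nucleus counts do not cover the same nuclei. The genotype and class of the additional nuclei were not analysed here.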

How the results depend on the processing

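With 1 library per genotype no library could be left out, and intervals leave out variation between animals. No paired analysis was possible because each genotype has 1 library. The alternatives covered 20 log2 ratios of members that were chosen for low ratios. Ttn in amacrine nuclei (0.25), members other than Endov in horizontal cells, and ratios of single clusters or depth ranges were left out. Under the alternatives, 180 of 180 log2 ratios stayed at -1 or lower, and 0 of 194 values changed direction. Of these values, 166 stayed within the counting interval or, for the gene count, within 1.5 times. The 28 others follow. Counting each gene once per nucleus gave Endov -1.60 over all nuclei, -1.57 in rods and cones, -1.81 in amacrine cells and -1.37 in RGCs, and Ttn -1.46 over all nuclei and -1.72 in RGCs. TMM gave Endov -2.34 over all nuclei and -2.25 in rods and cones, and median-of-ratios factors -2.34 and -2.23. With the Cre- class shares in both libraries, Spc25 was -2.66, Endov -2.11 and Ttn -2.05. Annotated cones in both libraries gave Spc25 -2.20, Endov -1.93, Gm40477 -2.35, Ttn -1.04 and Spink13 -1.30. Of the 265 Cre- nuclei here, 264 were in cluster 11, which held 0 Tet tcKO nuclei, so no cluster is compared with itself. The share of Cre- UMIs in rods and cones among nuclei with 1000 UMIs or more was 68.9% for Spc25, 65.3% for Endov, 78.1% for Gm40477, 27.3% for Ttn and 54.0% for Spink13, and with genes counted once per nucleus it was 73.1% for Endov, 48.8% for Ttn and 68.2% for Spink13. With a filter of 1 CPM 757 genes, and with 50 CPM 137 genes, were 2-fold lower over all nuclei, against 277. The cause of these shifts was not tested, except that the filters change the number of genes. Leaving out clusters 11, 25, 32 and 40 was chosen after seeing the data. In nuclei under 1000 UMIs Tet tcKO held at most 3 UMIs of each of Spc25, Gm40477, Ttn and Spink13, and ratios there are not informative.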
